A study of Mus musculus with 7 samples.

Results

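Interferon regulatory factors (IRFs) are transcription factors that switch on interferon genes and the genes that interferons induce. They share a DNA-binding domain that recognises GAAA repeats, found in the interferon-stimulated response element (ISRE). IRF3 and IRF7 are activated by kinases downstream of sensors of foreign nucleic acid, IRF9 is the DNA-binding subunit of the complex ISGF3, IRF1 is induced by interferon-gamma, and IRF4, IRF5 and IRF8 act mainly in lymphocytes, macrophages and dendritic cells. The rows Irf1, Irf2, Irf3, Irf4, Irf5, Irf7, Irf8 and Irf9 of a bulk RNA sequencing table were taken by gene symbol, 8 of 23420 rows. All 8 had enough reads to be tested.

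The table compared hearts of 7 mice aged 3 to 6 weeks that received no treatment. All were labelled Pdcd1-/-, so the controls too were labelled as lacking the gene for the T cell inhibitory receptor PD-1. Controls carried Ctla4+/+ (4 hearts), and the ICI-myocarditis group carried Ctla4+/- (3 hearts), with 1 copy of the gene for the inhibitory receptor CTLA-4, as a genetic model of heart inflammation caused by immune checkpoint inhibitors (ICI). The tissue label read whole mouse heart and the protocol named cardiac ventricle. The labels give neither the sex of the animals nor how the alleles were made, and do not say whether litters were shared.

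Libraries held 20931730 to 39037176 reads assigned to genes. Pdcd1 had 9.07, 244, 3.35 and 2.50 normalized counts in controls 1 to 4 and 1481, 1096 and 1340.2 in ICI-myocarditis 1 to 3, despite the label Pdcd1-/-, and Ctla4 was higher in the animals with 1 copy (63.3 ± 37.4 in the 4 controls against 302 ± 63.4 in the 3 ICI-myocarditis hearts, mean ± SD, as for all such pairs of values), and the table holds no counts by exon, so these rows could not check the genotypes. Control 2 stood apart from the other controls. On the first principal component of all tested genes, with 68.6% of the variance, it scored 2.25, against -96.6 to -61.1 for the other controls and 58.8 to 105 for ICI-myocarditis. The members' fold changes, control levels and ratio differences are therefore given with and without it. All 6 cardiomyocyte markers were present in each heart, and their sums were 1114314 to 2119839 normalized counts in controls and 678614 to 1206685 in ICI-myocarditis.

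Promoters were read from RefSeq (GRCm38.p6) for all 8 genes, over the 250 bases before each start site. They are shown because 6 members moved together, and they are split by the letters of 2 elements of the interferon pathway. One is the gamma-activated sequence (GAS), the element of the interferon-gamma response, searched as TTCNNNGAA, which reads the same on both strands. The other is the ISRE, searched as GAAANNGAAA on both strands. Capitals mark the match, with up to 30 bases on each side.
Irf1, chr11:53769894-53769962, plus strand: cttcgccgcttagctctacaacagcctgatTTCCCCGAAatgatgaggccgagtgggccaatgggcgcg
Irf2, chr8:46739495-46739559, plus strand: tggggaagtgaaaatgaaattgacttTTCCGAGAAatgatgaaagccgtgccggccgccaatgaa
Irf2, chr8:46739495-46739543, plus strand: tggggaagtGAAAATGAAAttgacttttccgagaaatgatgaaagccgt
Irf8, chr8:120736157-120736225, plus strand: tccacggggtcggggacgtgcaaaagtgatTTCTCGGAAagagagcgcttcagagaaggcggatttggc
Irf8, chr8:120736175-120736243, plus strand: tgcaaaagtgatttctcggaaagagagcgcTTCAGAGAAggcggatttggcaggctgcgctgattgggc
The line with the capitals GAAAATGAAA shows the ISRE letters of Irf2, and the other lines show TTCNNNGAA. The Irf1 match ended 81 bases before the start site, and the pair in Irf8 ended 162 and 144 bases before it. In Irf2 the GAAANNGAAA match and the TTCNNNGAA match lay side by side without overlap, ending 231 and 215 bases before the start site. The TTCNNNGAA letters occurred in 7.02% of all 32851 promoter windows and the GAAANNGAAA letters in 2.98%. Counted by gene, the shares were 8.13% and 3.46% of 27025 genes. Whether these letters had a part in the changes was not tested. Neither set of letters was in the windows of Irf3, Irf4, Irf5, Irf7 or Irf9.

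Of the 8 members, 6 rose in ICI-myocarditis and none fell. The 6 were Irf8, Irf5, Irf7, Irf1, Irf4 and Irf2. Irf9 did not pass, and Irf3 was near 0 on the log2 fold change scale. The test was limma on log2(normalized count + 1), called at an adjusted p of 0.05 over 15236 genes, and at that threshold 15.7% of all genes were called, 11.7% higher and 4.0% lower. The median log2 fold change was 2.18 over the members and -0.02 over all genes tested. Fold changes on this scale understate the change of low genes.

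**Figure D1:**
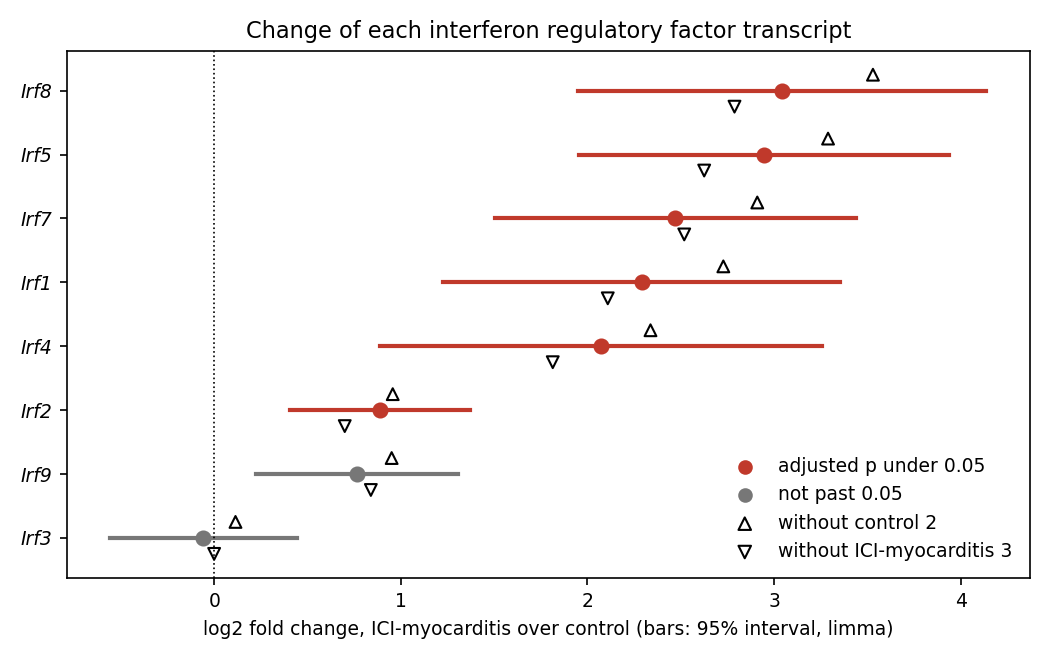
Log2 fold change of each Irf transcript, ICI-myocarditis (3 hearts) over control (4 hearts), with 95% intervals from limma as bars. Open triangles give the value without control 2 (pointing up) and without ICI-myocarditis 3 (pointing down). Irf8, at 3.04, and Irf5, at 2.95, lie at the top, and the interval of Irf3 covers 0.

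All libraries of ICI-myocarditis lay above all controls for 7 of the 8 members, where 17.3% of all genes tested did so. The exception was Irf3. Control 2 was the highest control for all 8 members, though at only 1.08 times the next control for Irf2 and 1.07 times for Irf4. The share of all genes with control 2 as the highest control was not counted. Its pan-leukocyte markers summed to 6701 normalized counts against 1882 to 2550.4 in the other controls, and their part in this was not tested. Without control 2 the same 6 passed and Irf9 with them, against 14.8% of all genes called higher in that fit. Without ICI-myocarditis 3, which held the highest level of 5 of the 6 called members and the highest sum of pan-leukocyte markers (30552 against 18131 and 18832), Irf5, Irf7 and Irf8 passed and the other 3 did not, with 5.96% of all genes called higher.

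**Figure D2:**
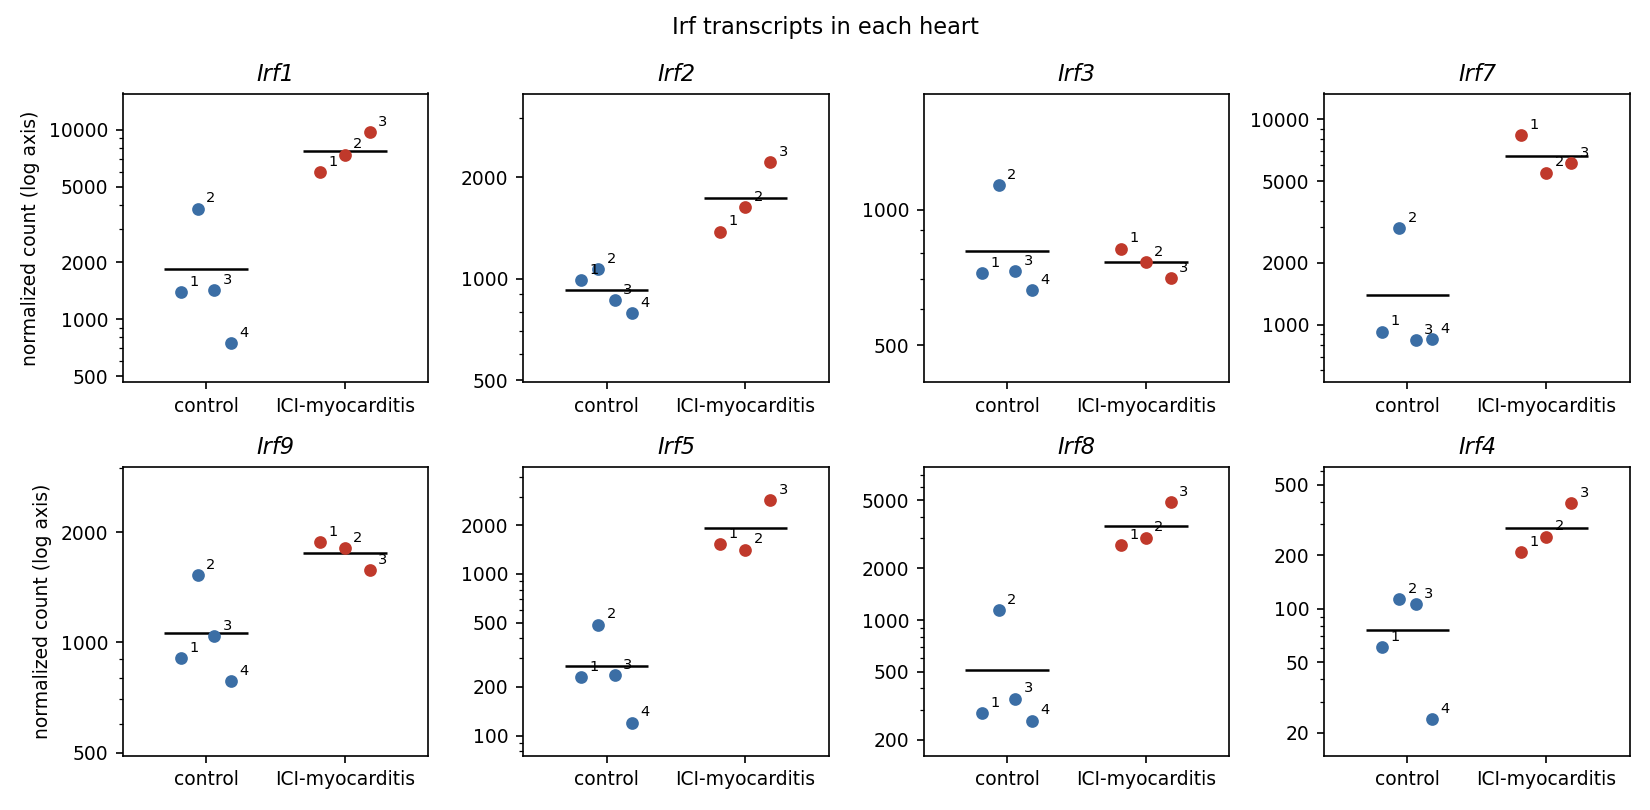
Normalized counts of the 8 Irf transcripts in each heart, on a log axis with its own range for each gene. Points are single hearts, numbered by replicate, and lines are group means. In 7 of the 8 panels every ICI-myocarditis heart lies above every control, and control 2 is the highest control in every panel.

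Irf1 and Irf2 encode an activator and an antagonist that bind the same DNA element. Irf1 (chr11:53770014-53778374, plus strand, as all gene positions on GRCm38) had 1387, 3830.2, 1425 and 743 normalized counts in controls 1 to 4 and 5993, 7376 and 9696 in ICI-myocarditis 1 to 3. The groups did not overlap, and control 2 reached 2.69 times the next control. Irf1 rose 4.89-fold (95% interval 2.34 to 10.2, limma log2 fold change 2.29 with an SE of 0.473, adjusted p = 0.0124), with a log2 fold change of 2.73 without control 2 (limma adjusted p = 0.000289). Irf1 shares 135 exon bases with Gm17334 on the opposite strand, and the sources used here do not give whether counting used strand. It missed the threshold without ICI-myocarditis 3 (limma log2 fold change 2.11, adjusted p = 0.0536).

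Irf2 (chr8:46739745-46847458, plus strand) had 993, 1068, 864 and 791 normalized counts in controls and 1380.2, 1628 and 2211 in ICI-myocarditis. The controls lay close together, control 2 included, and below every ICI-myocarditis heart. Irf2 rose 1.85-fold (95% interval 1.32 to 2.58, limma log2 fold change 0.89 with an SE of 0.214, adjusted p = 0.0234), with a log2 fold change of 0.96 without control 2 (limma adjusted p = 0.0167). The call was lost when control 1, control 3, ICI-myocarditis 2 or ICI-myocarditis 3 was left out, with limma adjusted p-values from 0.0505 to 0.0977.

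The log2 ratio of Irf1 to Irf2 within a heart was 0.48, 1.84, 0.72 and -0.09 in controls and 2.12, 2.18 and 2.13 in ICI-myocarditis. The ICI-myocarditis values lay within a narrow band above all controls, and control 2 came closest to them. The difference between group means was 1.40 (exact permutation p = 0.0571, two-sided, adjusted over 10 ratios 0.114), which did not pass. A split of 4 against 3 libraries cannot give an exact p below 0.0286. No ratio can therefore pass the adjustment, whatever its size, unless most of the 10 ratios reach that floor.

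Irf3 and Irf7 encode the factors that sensors of viral nucleic acid switch on. IRF3 is made constantly and activated by phosphorylation, while Irf7 is itself induced by interferon. Irf3 (chr7:44997648-45002848, plus strand) had 722, 1132, 729 and 662 normalized counts in controls and 819.5, 766 and 704 in ICI-myocarditis. All hearts but control 2 lay within the range of the ICI-myocarditis group or just below it. The fold change of Irf3 was 0.961 (95% interval 0.680 to 1.36, limma log2 fold change -0.06 with an SE of 0.221, adjusted p = 0.896), and without control 2 its log2 fold change was 0.11 (limma adjusted p = 0.693). Its sign also turned, to 0.10, with scaling by library totals. Irf3 shares 88 exon bases with Bcl2l12 on the opposite strand, so without a stated use of strand the reads of the pair may be mixed.

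Irf7 (chr7:141263183-141266499, minus strand) had 928, 2951, 841 and 852 normalized counts in controls and 8365, 5507 and 6147 in ICI-myocarditis. Controls 1, 3 and 4 lay close together, control 2 was 3.18 times the highest of them, and every ICI-myocarditis heart was higher still. Irf7 rose 5.55-fold (95% interval 2.83 to 10.8, limma log2 fold change 2.47 with an SE of 0.430, adjusted p = 0.00698), with a log2 fold change of 2.91 without control 2 (limma adjusted p = 3.83e-05). Irf7 passed under all 19 alternatives of the processing and shares 45 exon bases with Phrf1 on the opposite strand. Irf7 was highest in ICI-myocarditis 1, unlike the other called members, which were highest in ICI-myocarditis 3. The log2 ratio of Irf7 to Irf3 was 0.58 ± 0.540 (SD) in the 4 controls and 3.11 ± 0.253 (SD) across the 3 ICI-myocarditis hearts, with the groups apart. This difference of 2.53 had the lowest exact permutation p these groups can give, 0.0286, and did not pass adjustment over 10 ratios (0.0952).

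Irf9 encodes the DNA-binding subunit of ISGF3. Irf9 (chr14:55603985-55610030, plus strand) had 906, 1523, 1041 and 786 normalized counts in controls and 1883, 1809 and 1575 in ICI-myocarditis. The groups did not overlap, but control 2 lay just under the lowest ICI-myocarditis heart. The fold change of Irf9 was 1.70 (95% interval 1.17 to 2.47, limma log2 fold change 0.76 with an SE of 0.240, adjusted p = 0.0621), which missed the threshold. It passed under 3 of 19 alternatives, which were DESeq2 (adjusted p = 0.0462, with 14.2% of all genes called higher), limma-voom with quality weights (adjusted p = 0.00587, 16.4%) and the fit without control 2 (limma log2 fold change 0.95, adjusted p = 0.00866). Irf9 shares 123 exon bases with the neighbouring gene Rnf31 on the same strand.

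Stat2, which encodes a partner of IRF9 in ISGF3, had 959, 3058, 1196 and 798 normalized counts in controls and 3971, 4301 and 4131 in ICI-myocarditis. Controls 1, 3 and 4 were the low libraries, and the groups did not overlap. Stat2 rose (limma log2 fold change 1.67 with an SE of 0.407, adjusted p = 0.0241), a call lost in edgeR (edgeR adjusted p = 0.0656) and when any 1 library other than control 2 or 4 was left out (limma adjusted p from 0.0560 to 0.0763). The log2 ratio of Irf9 to Stat2 was -0.08, -1.005, -0.20 and -0.02 in controls and -1.08, -1.25 and -1.39 in ICI-myocarditis. Control 2 lay next to the ICI-myocarditis hearts in this ratio, which were all lower. The difference of -0.91 did not pass (exact permutation p = 0.0571, adjusted 0.114).

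Irf8 and Irf5, of the 3 IRFs named above for immune cells, had the highest fold changes of the 8 members. Irf8 guides the development of monocytes, macrophages and a class of dendritic cells. Irf8 (chr8:120736358-120756694, plus strand) had 287, 1145, 348 and 259 normalized counts in controls and 2726, 3031 and 4884 in ICI-myocarditis. Controls 1, 3 and 4 were alike, control 2 was 3.29 times the highest of them, and all ICI-myocarditis hearts were above it. Irf8 rose 8.24-fold (95% interval 3.86 to 17.6, limma log2 fold change 3.04 with an SE of 0.485, adjusted p = 0.00506), with a log2 fold change of 3.53 without control 2 (limma adjusted p = 3.92e-05). In whole tissue, more cells of a type and more RNA per cell cannot be told apart.

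Irf5 acts downstream of Toll-like receptors and drives inflammatory cytokine genes in macrophages. Irf5 (chr6:29526130-29541869, plus strand) had 231, 486, 237 and 120.1 normalized counts in controls and 1533, 1415 and 2872 in ICI-myocarditis. ICI-myocarditis 3 was well above the other hearts of its group, and the groups were apart. Irf5 rose 7.71-fold (95% interval 3.88 to 15.3, limma log2 fold change 2.95 with an SE of 0.439, adjusted p = 0.00424), with a log2 fold change of 3.29 without control 2 (limma adjusted p = 0.000233). It had the lowest p of the family and passed under all 19 alternatives, as did Irf8. Irf5 shares 411 exon bases with Tnpo3 on the opposite strand.

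Irf4 acts in activated T cells, plasma cells and alternatively activated macrophages. Irf4 (chr13:30749233-30766981, plus strand) had 60.5, 113, 106 and 23.8 normalized counts in controls and 208, 255 and 394 in ICI-myocarditis. The controls spread widely, with control 4 the lowest and controls 2 and 3 alike, and all lay below the ICI-myocarditis hearts. Irf4 rose 4.20-fold (95% interval 1.85 to 9.55, limma log2 fold change 2.07 with an SE of 0.525, adjusted p = 0.0283), with a log2 fold change of 2.34 without control 2 (limma adjusted p = 0.0111). The call was lost without control 1, ICI-myocarditis 2 or ICI-myocarditis 3 (limma adjusted p from 0.0707 to 0.119).

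In the authors' deposited table, 7 members had an adjusted p below 0.05, all higher in ICI-myocarditis. The share of all genes below 0.05 in that table was not counted, so this number has no background beside it. These were the 6 called here and Irf9, for which the authors' deposited table gave a log2 fold change of 0.72 and an adjusted p of 0.0491. For Irf8 and Irf5 the authors' deposited table gave log2 fold changes of 2.80 and 2.85.

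Levels of different members were compared as normalized counts per kilobase of the longest RefSeq mRNA. In controls Irf1 (864 ± 636 per kilobase, SD, n = 4) and Irf7 (623 ± 465) came first, followed by Irf3 (399 ± 106), Irf2 (372 ± 50.03) and Irf9 (359.6 ± 109). Irf8 (179 ± 149) and Irf5 (119.8 ± 69.0) were lower, and Irf4 (15.9 ± 8.80) lowest. Neighbours in this order overlapped in range, except Irf5 and Irf4. Without control 2, an alternative chosen after seeing the data, the control means were lower, at 555 ± 179 for Irf1, 390.5 ± 21.1 for Irf7 and 105 ± 16.0 for Irf8 (SD, n = 3), and Irf2 (354 ± 41.0) stood above Irf3 (347 ± 18.2). The order was otherwise as with it, with Irf9 at 308, Irf5 at 87.4 and Irf4 at 13.3 per kilobase. The ICI-myocarditis order was Irf1 (3598 ± 876, SD, n = 3), Irf7 (2983 ± 671), Irf8 (1246 ± 410.3), Irf5 (866 ± 361), Irf2 (697 ± 171), Irf9 (593 ± 54.3), Irf3 (376 ± 28.5) and Irf4 (59.9 ± 20.3). Irf8 and Irf5 stood higher in this order than in controls, and Irf3 lower. With the length of all exons joined in place of the longest mRNA, also chosen after seeing the data, Irf5 stood above Irf8 and Irf9 above Irf2 in both groups. In ICI-myocarditis the steps from Irf7 to Irf8, from Irf9 to Irf3 and from Irf3 to Irf4 were apart, and the other neighbours overlapped.

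**Figure D3:**
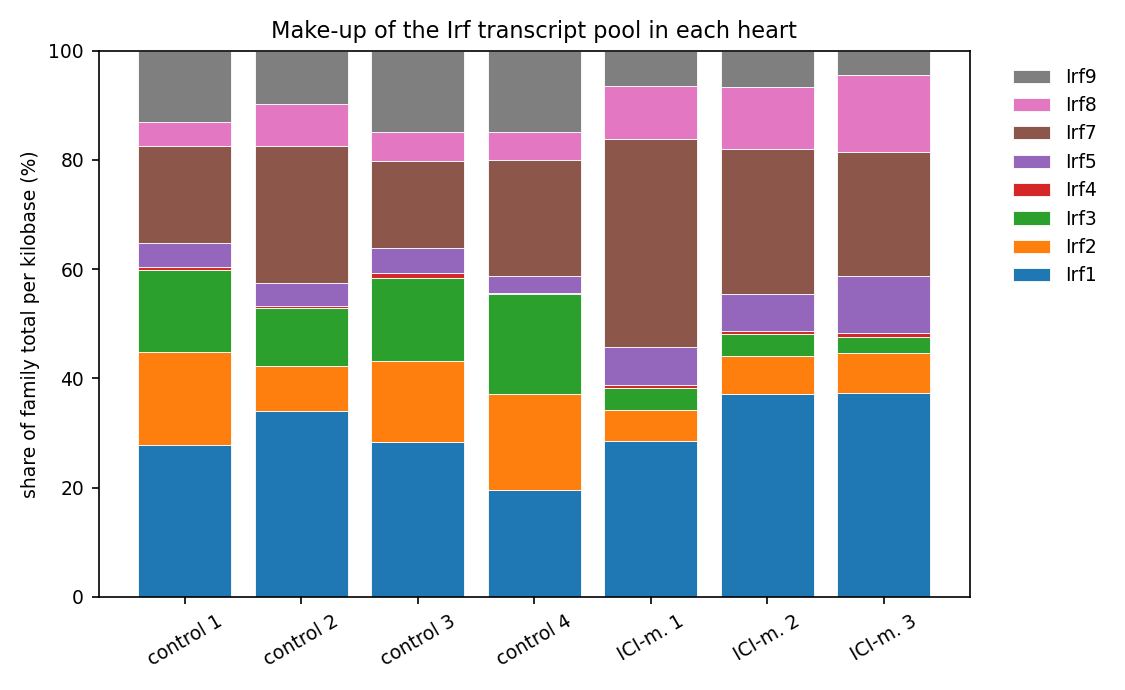
Share of each member in the summed level per kilobase of the 8 Irf transcripts, in percent, for each heart. Irf1 and Irf7 together fill the larger part of the bar in the ICI-myocarditis hearts and in control 2, but not in controls 1, 3 and 4. The Irf2, Irf3 and Irf9 bands are narrower in the 3 ICI-myocarditis hearts than in any control.

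The summed level per kilobase of the 8 members was 2933 ± 1570.1 (SD) across the 4 controls and 10418 ± 1504 (SD) across the 3 ICI-myocarditis hearts. Every ICI-myocarditis heart was above control 2, the highest control, at 5254, and controls 1, 3 and 4 lay at 2340.0, 2349.7 and 1786. The share of Irf3 in this sum was 14.8% ± 3.15 in controls and 3.67% ± 0.708 in ICI-myocarditis. That of Irf8 was 5.57% ± 1.45 and 11.8% ± 2.22. That of Irf7 was 20.04% ± 4.04 and 29.1% ± 8.03, and ranged in ICI-myocarditis from 22.7% in heart 3 to 38.1% in heart 1. Without control 2 the control sum was 2159 ± 323 (SD, n = 3), and the control shares were 16.2% for Irf3, 4.87% for Irf8 and 18.3% for Irf7. These shares carry no test.

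Markers of immune cells moved with the members. All 4 pan-leukocyte markers were called higher, with sums of 1882 to 6701 normalized counts in controls and 18131 to 30552 in ICI-myocarditis. The same held for all 6 T cell markers (123 to 1462 and 6389.7 to 9759) and all 6 macrophage and monocyte markers (9785 to 14149 and 36163 to 52949). Of 6 dendritic cell markers, Flt3 and Xcr1 were called higher, while the sums overlapped (686 to 2239 and 1609 to 2286). The B cell markers were low (51.4 to 127 and 118 to 150.4), with Pax5 under 10 in every library and Cd79b called higher. Of 5 plasma cell markers, the J chain row Igj was called higher and Tnfrsf17 was under 10 throughout. Of the 5 thymus markers, Rag1, Dntt and Foxn1 were under 10 in every library, and Rag2 was highest in control 3, at 10.05. Ccr9 was present in each heart, from 13.8 in control 4 to 113 in control 2. Its group means were alike (57.2 for control, 59.0 for ICI-myocarditis), and it was not called. Of the rest, 1 of 4 fibroblast markers (Col1a1) and 1 of 4 skeletal muscle markers (Tnnt3) were called higher, and so were 2 of 6 epithelial markers (Epcam and Cdh1), whose sums were low (34.5 to 87.7 and 137 to 305). Endothelial markers moved the other way, with 3 of 5 called lower (22917 to 58073 and 14194 to 21324). No cardiomyocyte marker was called. Myh6, Tnni3 and Ryr2 were lower in every ICI-myocarditis heart than in any control (limma log2 fold changes -0.92, -1.16 and -1.27). Actc1, Tnnt2 and Pln overlapped between groups. The part of cell numbers in the rises of the Irf transcripts was not tested.

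The leukocyte gene Ptprc, which encodes CD45, was therefore set beside 5 members within each heart. Ptprc had 483, 2874, 1108 and 518 normalized counts in controls and 8012, 6879 and 10493 in ICI-myocarditis. The log2 ratio of Irf8 to Ptprc was -1.18 ± 0.399 in controls and -1.28 ± 0.241 in ICI-myocarditis, and that of Irf5 to Ptprc -1.99 ± 0.647 and -2.18 ± 0.273. Both sets of values overlapped (exact permutation p = 0.771 for each), with differences of -0.10 and -0.19. Without control 1 these turned to 0.05 and 0.12, and without ICI-myocarditis 1 the Irf8 difference was 0.04. The range of the controls, from -1.67 to -0.75 for Irf8 and from -2.56 to -1.06 for Irf5, was wider than that of the ICI-myocarditis hearts. The ratio of Irf7 to Ptprc also overlapped, with a difference of -0.67 (exact permutation p = 0.257).

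For Irf1 and Irf4 the ratio to Ptprc was lower in every ICI-myocarditis heart than in any control. The log2 ratio of Irf1 to Ptprc was 1.52, 0.41, 0.36 and 0.52 in controls and -0.42, 0.10 and -0.11 in ICI-myocarditis. All ICI-myocarditis values were below all controls, with control 1 far above the rest. The difference of -0.85 reached the smallest exact permutation p, 0.0286, and did not pass adjustment (0.0952). The ratio of Irf4 to Ptprc was -3.85 ± 0.801 in controls and -4.91 ± 0.302 in ICI-myocarditis, apart, with control 2 at -4.65 next to the ICI-myocarditis hearts, but not passing (exact permutation p = 0.114, adjusted 0.19).

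**Figure D4:**
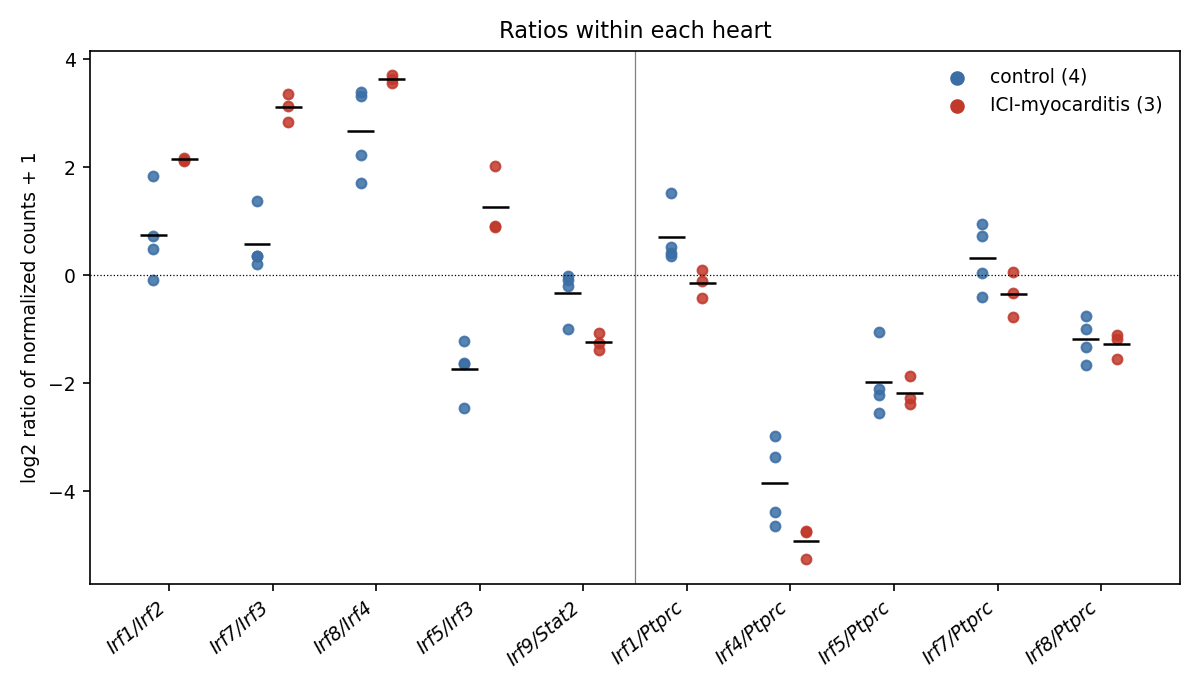
Log2 ratio of 2 transcripts within each heart (normalized counts + 1). Points are hearts, short lines group means, and the 5 ratios to the right of the grey line are to the leukocyte gene Ptprc. The groups are apart for all ratios but Irf5, Irf7 and Irf8 to Ptprc.

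Among the other ratios, Irf5 to Irf3 was -1.73 ± 0.518 in controls and 1.27 ± 0.655 in ICI-myocarditis, apart by 3.00 (exact permutation p = 0.0286, adjusted 0.0952). Irf8 to Irf4 was 2.66 ± 0.831 and 3.63 ± 0.0712 (exact permutation p = 0.143, adjusted 0.204), with controls 2 and 4 close to the ICI-myocarditis hearts. None of the 10 ratios passed the exact permutation test after adjustment, and 3 had an unadjusted p under 0.05. The design left little room to pass, since most of the 10 would have had to reach the floor of 0.0286. Without control 2 the differences were larger in size, at 1.77 for Irf1 to Irf2, 2.80 for Irf7 to Irf3, 3.18 for Irf5 to Irf3, 1.19 for Irf8 to Irf4 and -1.14 for Irf9 to Stat2. To Ptprc they were -0.95 for Irf1, -1.34 for Irf4, -0.38 for Irf5, -0.76 for Irf7 and -0.14 for Irf8. With 3 hearts against 3 the exact permutation p cannot go below 0.1, so none of these could pass.

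Genes that feed signals to the IRFs were read from lists, and limma called 11.7% of all genes higher. Ifng, the gene of interferon-gamma, had 2.02, 55.5, 4.47 and 0 normalized counts in controls and 244, 283 and 583 in ICI-myocarditis. Its log2 fold change was 5.96 with an SE of 1.14 (limma adjusted p = 0.00938), a rise. Without control 2 it was 7.08 and without control 4 it was 5.14. The other 20 interferon genes were too low to test. Of these, 13 were at 0 in every library, and the highest value was 9.87 normalized counts, for Ifnk. Ifnb1, the gene of interferon-beta, was at 0, 0, 1.12 and 0 in controls and 0, 1.45 and 0.764 in ICI-myocarditis. Of the 6 interferon receptor genes limma called 0 and 2 had an unadjusted p under 0.05, while edgeR called 0, DESeq2 1 (Ifnar2), limma-voom 2 (Ifnar1 and Ifnar2, adjusted p = 0.0362 and 0.0184) and limma without control 2 called 1 (Ifnar1, adjusted p = 0.0388). Ifnar1 and Ifnar2 had log2 fold changes of 0.58 and 0.52 (limma adjusted p = 0.0841 and 0.0824), with the groups apart. Ifngr1, Ifngr2, Ifnlr1 and Il10rb overlapped between groups, at 0.31, -0.47, -0.21 and -0.29 (limma adjusted p from 0.366 to 0.676). The median over the 6 receptor genes was 0.05.

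Of 25 genes of nucleic acid sensors and their adaptors and kinases, 14 rose and none fell, with a median log2 fold change of 0.99. Without control 2 the count was 15, and without ICI-myocarditis 3 it was 6. Zbp1, a sensor of Z-form nucleic acid, rose on the log2 scale by 4.57 (limma adjusted p = 0.00379), and by 5.25 without control 2. The endosomal Toll-like receptor genes Tlr9 and Tlr8 rose on the log2 scale by 3.27 and 2.55 (limma adjusted p = 0.00378 and 0.00317). The 2 kinases that phosphorylate IRF3 and IRF7 had different values. Ikbke had 59.5, 289.9, 87.1 and 35.03 normalized counts in controls and 462, 483 and 915 in ICI-myocarditis and rose on the log2 scale by 2.77 (limma adjusted p = 0.0176), a call lost without control 1, control 3 or ICI-myocarditis 3 (limma adjusted p from 0.0529 to 0.0763). Tbk1 had 807, 1399, 1046 and 859.5 and 1415, 1102 and 1435, which overlapped (limma log2 fold change 0.38, adjusted p = 0.308). Irak1, a kinase of the Toll-like receptor pathway, had 2961 ± 602 and 2799.7 ± 254 (limma adjusted p = 0.879), with a sign that changed between alternatives.

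Of 17 genes of IRF partners and corepressors, 6 rose and none fell (median 0.23). Stat2 was among them, and so were genes of PU.1 and of BATF proteins, with which IRF4 and IRF8 bind DNA. Sfpi1, the older symbol of the PU.1 gene Spi1, rose from 255 ± 113 to 1478 ± 614 normalized counts (limma log2 fold change 2.55, adjusted p = 0.00396). Of the AP-1 family, Batf2 rose on the log2 scale by 4.65, Batf3 by 3.31 and Batf by 3.11 (limma adjusted p = 0.00428, 0.00599 and 0.00778), and Junb was called too. Without control 2 the log2 fold change of Batf2 was 5.39. Jun had 2866 ± 1046 and 2859 ± 204 normalized counts (limma adjusted p = 0.913). Irf2bp2, a corepressor that binds IRF2, had 5224 ± 2926 and 5369 ± 143 (limma log2 fold change 0.20, adjusted p = 0.776).

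Genes listed as targets of IRFs were counted next, against 11.7% of all genes called higher and a median log2 fold change of -0.02. The lists overlap in Il12b, and the counts do not separate the activity of single IRFs. They were chosen with earlier results of these data known, which limits the comparison with all genes. Of 26 genes induced by IRF1 and interferon-gamma, 23 rose and none fell, with a median of 2.95. Socs1, a feedback inhibitor of JAK kinases, rose from 71.6 ± 76.3 to 1218 ± 234 normalized counts (limma log2 fold change 4.55, adjusted p = 0.00366), and its log2 fold change was 5.17 without control 2. B2m, the light chain of MHC class I, rose on the log2 scale by 2.63, and Il18bp, which encodes a decoy for interleukin-18, by 2.35 (limma adjusted p = 0.00317 and 0.00379). The 3 genes not called were Il15, Il15ra and Nos2, the gene of inducible nitric oxide synthase, which had 839.7 ± 373 and 964 ± 599 normalized counts (limma adjusted p = 0.961).

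Of 22 genes induced by ISGF3, 17 rose and none fell, with a median of 1.78. Oas3, an antiviral oligoadenylate synthetase gene, rose on the log2 scale by 4.69, and Dtx3l and Rtp4 by 2.11 and 1.63 (limma adjusted p = 0.00376, 0.00354 and 0.00425). Without control 2 Oas3 rose by 5.36 on the log2 scale. The 5 not called were Mx2, Oas2, Rsad2, Cmpk2 and Ifi44. Mx2 had 187 ± 166 and 236 ± 61.1 normalized counts (limma adjusted p = 0.475).

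Of 8 cytokine genes driven by IRF5, 5 could be tested and 4 rose (median 3.95). The median is the value of Il12b. Il12b and Ccl4 were under 10 normalized counts in controls 1, 3 and 4, so they could be tested only through the ICI-myocarditis hearts. The count and the median are limited by this. The chemokine genes Ccl4 and Ccl5 rose on the log2 scale by 6.74 and 6.03 (limma adjusted p = 0.00414 and 0.00506). Il12b, a gene of interleukin-12 that stands on 2 of the lists, had 1.01, 11.1, 2.23 and 0 normalized counts in controls and 40.9, 56.5 and 39.7 in ICI-myocarditis (limma log2 fold change 3.95, adjusted p = 0.0107). Il6, Il12a and Il23a were too low to test, and Il1b did not pass (limma log2 fold change 2.50, adjusted p = 0.124). Without control 2 Il1b passed (3.35, limma adjusted p = 0.0101), so that all 5 tested genes rose, and it passed in limma-voom (adjusted p = 0.00832), while without control 4 it was 1.61. In the fit without control 2 Ccl4 rose by 7.72, Ccl5 by 7.05 and Il12b by 4.63 on the log2 scale.

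Of 14 IRF8 targets, 10 rose and none fell (median 2.31). The lysosomal protease gene Ctss rose from 1019 ± 607 to 18413 ± 5671 normalized counts (limma log2 fold change 4.29, adjusted p = 0.00251). Xcr1, a receptor of the dendritic cells that depend on IRF8, had 13.1, 72.8, 25.7 and 15.01 in controls and 276, 414 and 501 in ICI-myocarditis (limma log2 fold change 3.90, adjusted p = 0.00394). Cst3 had 13133 ± 3491 and 15105 ± 2502 normalized counts (limma adjusted p = 0.642). Several of these genes, Fcgr1 and Xcr1 among them, are also markers of macrophages and dendritic cells.

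Of 13 IRF4 targets, 12 were tested, 6 rose and none fell (median 1.16). The count was 8 without control 2 and 3 without ICI-myocarditis 3. Arg1, the arginase gene of alternatively activated macrophages, had 12.1, 30.8, 22.3 and 22.5 normalized counts in controls and 182, 367 and 436 in ICI-myocarditis (limma log2 fold change 3.82, adjusted p = 0.00251). Ikzf2, a gene of regulatory T cells, rose on the log2 scale by 1.02 (limma adjusted p = 0.00872). Prdm1, the IRF4 target that encodes Blimp-1, had 247, 519, 299 and 82.6 and 366, 615 and 906, which overlapped (limma log2 fold change 1.31, adjusted p = 0.154). Prdm1 passed without control 2 (limma adjusted p = 0.0408) and in limma-voom (adjusted p = 0.0424). Retnla, another gene of alternatively activated macrophages, had 54.5 ± 21.8 and 110.3 ± 155 (limma adjusted p = 0.998), with a sign that changed between alternatives. Ctla4 is on this list and differs between the groups by genotype.

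**Figure D5:**
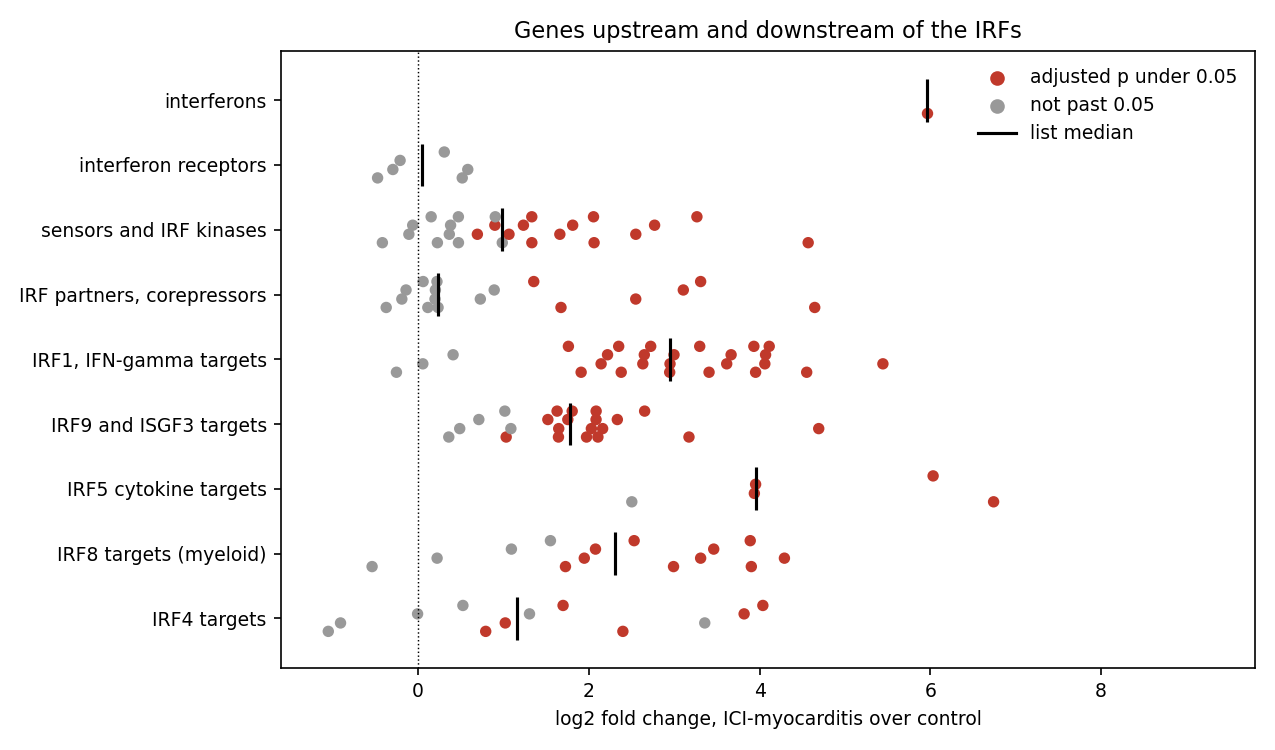
Log2 fold changes, ICI-myocarditis over control, of the tested genes in each list of genes upstream and downstream of the IRFs. Red points passed an adjusted p of 0.05 in limma, grey points did not, and black lines are list medians. No point to the left of 0 is red, and the list of IRF1 and interferon-gamma targets has its median at 2.95.

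Genes with the pattern most like a member were ranked by the root mean square difference of log2 values over the 7 libraries, each gene centred on its own mean, among 11951 genes with a mean of at least 100 normalized counts. For Irf8 these were Vav1 (0.0957), Pik3ap1 (0.127) and Themis2 (0.134). For Irf1 they were Nfkbie (0.113), Pik3cd (0.123) and Rinl (0.131). For Irf5 they were Pmaip1 (0.149), Hrh2 (0.232) and Pik3r5 (0.232), and for Irf7 Psmb10 (0.205), Hist1h2ak (0.235) and Dok3 (0.240). Irf4 had no gene as close, with Tgif1 (0.256), Rab11fip1 (0.266) and Lrrc4 (0.293) first. Irf9 was closest to Mcm7 (0.0956), Irf2 to Man2b2 (0.0813), and Irf3 to Nadsyn1 (0.0352). Within the family the closest pair was Irf5 and Irf8 (0.306), followed by Irf2 and Irf9 (0.324) and by Irf1 and Irf5 (0.387).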

How the data were processed

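RNA from 7 mouse hearts was sequenced, and the submitters' processing notes name STAR 2.7.3, GRCm38 and mm10. The counting tool, annotation and use of strand are not given in the sources used here. The deposited signal values are the authors' normalized counts, per the file headers. In each library they are whole multiples of 1 step, as gene counts divided by a size factor would be, and dividing by the step gave whole reads for 100.0% of values within 0.001, a weaker sign in control 1, whose step is near 1. The deposited table also holds the authors' log2 fold change, test statistic (a score) and p-value columns and a mean column that equals the mean of the libraries. Of 23420 rows, 27 whose names read as dates were left out, with at most 0.158% of a library's reads.

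Kept for testing were 15236 genes that reached 10 normalized counts in 3 or more libraries. A gene could pass this filter through the 3 ICI-myocarditis hearts alone. The test was limma 3.58.1 (trend and robust variance, R 4.3.3) on log2(normalized count + 1), all 7 libraries, no covariates, Benjamini-Hochberg over all genes, threshold 0.05. Ratios within a heart were compared with exact permutation tests over 35 splits, on the absolute difference of means, two-sided, adjusted over 10. The 19 alternatives cover the pseudocount, filter, scaling, variance model, edgeR 4.0.16, DESeq2 1.42.0, limma-voom, a replicate block and each library left out. The script was tested on simulated data.

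Named are all 8 members, a fixed set of partners, and from each list the 3 genes with the lowest p and the gene with the highest. Genes named to complete a count of 5 or fewer were chosen after their values were seen. Some items are not reported here. The members and lists were chosen with earlier results of these data known. No label says whether replicates shared litters or were prepared together, so p-values measure the spread between these samples. The chi-square of replicate pairs was at least 81.8 per degree of freedom, so no library was a copy. Promoter letters come from RefSeq (GRCm38.p6), and gene coordinates and overlaps from a GENCODE annotation of GRCm38.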

Additional observations from a re-analysis of the deposited data

Results flagged for a closer look

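Of 60 results with 4 control values, 7 held 1 control far from the other 3, where chance gives about 1 in 20. The results share the same 4 hearts, and some share genes, so 7 of 60 cannot be judged against that share. The measure is the gap of the extreme control to its nearest neighbour divided by the range of the 4 controls. It was taken on log2(normalized count + 1) for genes and on the log2 ratio for ratios. For Irf7 it was 0.922, with control 2 high. Control 2 was also the high library for 3 other genes of the interferon response or its sensors, namely Tlr9 (0.868), Il18bp (0.885) and Oas3 (0.975), and for the ratio of Irf7 to Irf3 (0.865). The pan-leukocyte markers were highest among controls in the same heart, and their part in these values was not tested. For the ratio of Irf1 to Ptprc the measure was 0.864, with control 1 high. For Ifnb1 it was 1.0, and rests on 1 read in control 3.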

How the results depend on the processing

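Over 1305 comparisons of a value with its alternative, 1221 kept their direction and side of the threshold or moved little, 19 lost and 11 gained a call, 21 moved and 33 changed sign. Irf5, Irf7 and Irf8 were called under all 19 alternatives, Irf1 under 18, Irf4 under 16, Irf2 under 14 and Irf9 under 3. The number of members called was 3 to 7 when 1 library was left out, with 3 without ICI-myocarditis 3. The number of all genes called was 2392, against 4034 with limma-voom and 1072 to 3339 when 1 library was left out (1506 without control 1, 3339 without control 2, 1297 without control 3, 1539 without ICI-myocarditis 2, 1072 without ICI-myocarditis 3). The cause was not tested. Scaling by library totals moved the median log2 fold change of all genes to 0.13 and the share of calls that were higher from 74.5% to 84.3%, quantile normalization to -0.14 and 55.8%, and DESeq2 and limma-voom gave 62.8% and 62.0%. The members called were the same 6 under all 3 scalings tried.

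Signs changed only for genes and ratios that were not called. With library totals the log2 fold changes were 0.10 for Irf3, 0.0981 for Irak1 and 0.15 for Retnla. Retnla was at 0.10 with a pseudocount of 10, 1.01 in edgeR and 1.27 in limma-voom. Jun was at -0.0160 in edgeR and -0.0033 in DESeq2, and Nos2 at -0.0637 with quantile normalization. In limma-voom Irf3 was at 0.0276, Ifnlr1 at 0.0177 and Irak1 at 0.0311. With 1 library left out the values spanned -0.14 to 0.11 for Irf3, -0.17 to 0.0376 for Irak1, -1.25 to 0.74 for Retnla, -0.11 to 0.28 for Jun, -0.39 to 0.73 for Nos2, -0.0303 to 0.53 for Irf2bp2, -0.39 to 0.0567 for Ifnlr1, and -0.38 to 0.12 for the ratio of Irf5 to Ptprc and -0.26 to 0.04997 for the ratio of Irf8 to Ptprc.

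Same-numbered samples did not deviate together (r = -0.271, -0.206 and -0.0778 for numbers 1 to 3), so the numbers were not taken to pair them, and no sample correlated best with its own number. With the replicate block, which drops control 4, 1767 genes and 5 members were called, without Irf2 (limma adjusted p = 0.120). In that fit Irak1 was at 0.0376, Jun at -0.00158, Nos2 at -0.28 and Retnla at 0.16. No ratio could pass under the block, where the smallest exact p is 0.25.

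With 3 and 4 hearts a group, exact p-values cannot go below 0.0286. Interferon genes other than Ifng, at under 10 normalized counts, were too shallow to compare.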
